A study of Rattus norvegicus with 8 samples.

Results

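The miRNAs of the Clcn5 locus were the array features whose names begin with miR-188, miR-532, miR-362, miR-500, miR-501 or miR-660. Of 758 rat miRNAs on the array, 10 matched, from 5 of these 6 families, and none was from miR-660. They were chosen by name around miR-188-5p, whose rise in the TULP group was already known from these arrays, so their differences between TULP and sham are given as a description. Of the 10 miRNAs, 3 were detected on any array (rno-miR-188-5p, rno-miR-500-3p and rno-miR-532-5p) and 7 on none, including rno-miR-532-3p and rno-miR-501-5p. The prefix rno- stands for rat and is left out below.

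Bulk tissue of the prostatic urethra was taken from male Sprague Dawley (SD) rats aged 10 to 12 months, 5 days after surgery. In the TULP group (thulium laser prostatectomy), a laser had vaporized the urethral epithelium in a model of transurethral laser prostatectomy. Rats of the sham group had a midline opening of the abdomen and no laser. In the TULP rats the bladder was also opened and a scope passed through it into the urethra. The groups therefore differ in more than the laser. Each group held 4 biological replicates with 1 array each. Titles, tissue and treatment fields name trauma tissue for the TULP samples, while their descriptions end with sham surgery, and every difference here rests on the titles. The tissue is a mixture of epithelium, muscle, vessels and blood-borne cells, so that a change in the number of cells of a type and a change in RNA per cell cannot be told apart.

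miRNAs are short RNAs cut from hairpin precursors. The 5′ arm gives the miRNA named -5p and the 3′ arm the one named -3p, and the seed (bases 2 to 8) directs most pairing with messenger RNAs. Hairpins that lie close together on 1 strand are often cut from a common transcript, and those within a protein-coding gene often from the transcript of that host. Clcn5 encodes a chloride/proton exchanger of endosomes, known best from the kidney tubule. miR-188-5p has been studied in bone marrow stromal cells and in neurons.

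In the RefSeq annotation of the rat build GRCr8, Clcn5 spans chrX:17857260-18011844 (154.6 kb). All 5 hairpins lie inside it on the plus strand, the strand of the promoters listed for Clcn5, and within 11.5 kb of each other. Mir532 lies at chrX:17919185-17919263 and Mir188 at chrX:17919585-17919664, 321 bases downstream. Mir362 follows at chrX:17926485-17926549, Mir501 at chrX:17927189-17927272 and Mir500 at chrX:17930647-17930726. The gap between Mir188 and Mir362 is 6.82 kb. Mir3560 lies on the minus strand at chrX:17927178-17927289 and covers Mir501. Exon positions were not used here, so whether each hairpin lies in an intron was not checked.

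**Figure D1:**
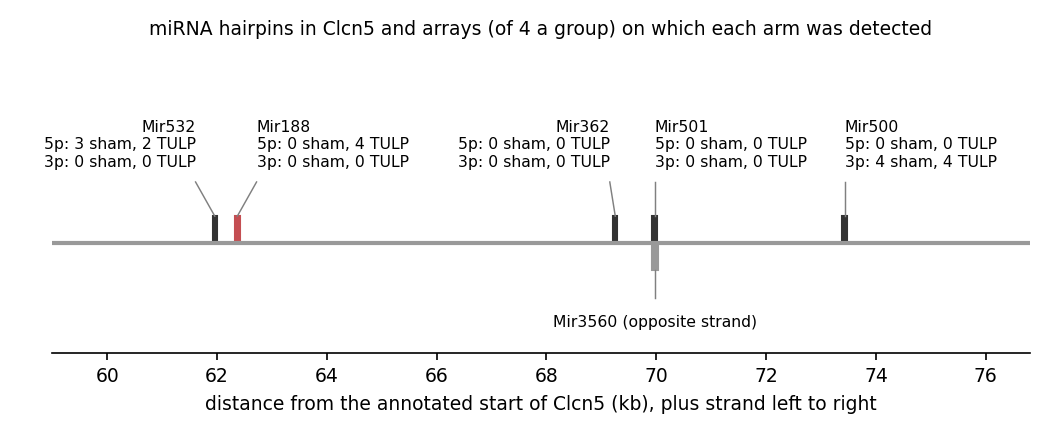
Positions of the miRNA hairpins inside Clcn5, in kb from the annotated start of the gene, with boxes above the line for the plus strand and below it for the minus strand. Under each name stands the number of arrays, of 4 in a group, on which each arm was detected. Mir532 and Mir188 are neighbours, and the arm detected on 4 TULP arrays and 0 sham arrays is the 5p arm of Mir188.

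The hairpin of Mir188 is shown because its 5′ arm was detected on every TULP array and its 3′ arm on no array. The hairpins of Mir532 and Mir500 are shown as the other hairpins with a detected arm. Capitals mark the mature arms, and all sequences are from RefSeq (GRCr8), written 5′ to 3′.
Mir188: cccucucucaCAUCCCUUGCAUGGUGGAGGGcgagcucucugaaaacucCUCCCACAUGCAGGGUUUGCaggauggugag
Mir532: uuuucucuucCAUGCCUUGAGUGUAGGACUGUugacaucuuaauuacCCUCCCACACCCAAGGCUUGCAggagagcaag
Mir500: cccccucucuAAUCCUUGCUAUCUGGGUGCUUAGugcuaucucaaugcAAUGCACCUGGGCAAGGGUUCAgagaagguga

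A mature sequence was found for 9 of the 10 miRNAs, all but miR-362-5p. They are printed with the seed in capitals, to show which miRNAs of the locus would pair with the same sites. The first pair shares a seed, and each of the others has a seed of its own among the 9. The seed of miR-362-5p, whose first base was not listed, could not be compared. The hairpin of Mir362 holds the bases AUCCUUG, the seed of miR-500-5p, ahead of its 3p arm.
miR-500-3p: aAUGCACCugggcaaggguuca
miR-501-3p: aAUGCACCcgggcaaggauuugg
miR-188-5p: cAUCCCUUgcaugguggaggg
miR-532-5p: cAUGCCUUgaguguaggacugu
miR-188-3p: cUCCCACAugcaggguuugc
miR-532-3p: cCUCCCACacccaaggcuugca
miR-500-5p: aAUCCUUGcuaucugggugcuuag
miR-501-5p: aAUCCUUUgucccuggguga
miR-362-3p: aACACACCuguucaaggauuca

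Seeds were compared among the 685 of 758 rat miRNAs on the array that had a listed mature sequence. Within these, miR-188-5p shared its seed with 0 others. miR-532-5p shared its seed with miR-511-5p and miR-362-3p with miR-329-3p, and both of these partners were detected on 0 arrays. miR-500-3p and miR-501-3p had 18 identical bases of 22 when aligned at their first base. miR-188-5p and miR-532-5p, from neighbouring hairpins, had 14 identical bases of 21 but different seeds. No tested miRNA outside the locus that had a listed sequence shared bases 2 to 7 with a miRNA of the locus.

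The 10 miRNAs were read by 22 probes on 160 spots of each array. On this array probes pair with the 3′ end of the miRNA, as did all 18 probes of the 9 miRNAs with a known sequence. Probes on this array were 10 to 23 bases long, with a median of 16. Both probes of miR-188-5p were among the shortest, with 10 and 11 bases, and 53 of 1806 probes (2.93%) had 11 bases or fewer. The probes of miR-500-3p had 15 and 16 bases and those of miR-532-5p 17 and 18. The bases read by the shorter probe of each detected miRNA are in capitals below, to show how much of the RNA each signal rests on.
miR-188-5p: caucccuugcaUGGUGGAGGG
miR-500-3p: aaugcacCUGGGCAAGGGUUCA
miR-532-5p: caugcCUUGAGUGUAGGACUGU

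The probes of miR-188-5p themselves, written as the array files give them, were as follows, with the bases that pair in capitals.
shorter probe: CCCTCCACCA
longer probe: CCCTCCACCAT

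Neither the last 10 nor the last 9 bases of miR-188-5p occurred in another of the 693 mature rat miRNAs listed. The last 8 occurred in 1 other, miR-3558-3p, which was detected on 0 arrays, with a mean spot signal between -1.55 and -0.03. Besides miR-188-5p, 2 other tested miRNAs had a probe of 11 bases or fewer, miR-1224 (TULP minus sham 0.80 ± 0.21 SE on the log2 scale) and miR-6328 (0.57 ± 0.13 SE), and both passed the adjusted p. The part of probe length in these differences was not tested.

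A probe was counted as detected where its total signal exceeded 3 times its error. The total signal of the shorter miR-188-5p probe, an intensity on a linear scale before normalization, was 2.25, 2.25, 1.42 and 2.04 on sham arrays 1 to 4. On TULP arrays 1 to 4 it was 11.84, 4.52, 8.0 and 10.08. For the longer probe, sham arrays 1 to 4 gave 1.79, 2.31, 1.62 and 3.15, and TULP arrays 1 to 4 gave 12.12, 3.65, 7.48 and 12.03. Both probes were higher on every TULP array than on any sham array.

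The TULP mean over the sham mean was 4.33 for the shorter probe and 3.98 for the longer one. On TULP array 2 the longer probe did not pass the detection rule, and miR-188-5p counted as detected there through 1 probe. Spots well above background by the software's own test numbered 16, 0, 13 and 16 of 16 on TULP arrays 1 to 4 and 0 on each sham array. TULP array 2 was therefore intermediate: its signal was above all sham arrays and below the other TULP arrays.

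Averaged over its spots, miR-188-5p gave a mean signal of 3.99 ± 0.91 for sham and 16.3 ± 6.57 for TULP (SD, n = 4 each), a ratio of 4.10. The groups did not overlap. The other arm of the hairpin, miR-188-3p, gave -2.02 ± 0.24 for sham and -2.32 ± 0.76 for TULP (SD, n = 4 each). Values at or below 0 are at the level of the subtracted background, so that at this signal a change in miR-188-3p was not detectable.

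miR-500-3p was detected on all 8 arrays. The total signal of its longer probe was 6.80, 12.77, 9.25 and 15.87 on sham arrays 1 to 4 and 9.65, 14.21, 11.89 and 13.61 on TULP arrays 1 to 4. The groups overlapped, and sham array 4 was the brightest of all 8. Its shorter probe was dimmer, at 1.59, 3.03, 3.14 and 4.14 on sham arrays 1 to 4 and 1.98, 4.33, 3.44 and 4.69 on TULP arrays 1 to 4, and passed detection on sham array 4 and TULP arrays 2 and 4 alone. The sum of detected probes therefore holds both probes on these 3 arrays and 1 probe on the others. The mean spot signal was 13.4 ± 4.69 for sham and 14.9 ± 2.89 for TULP (SD, n = 4 each), a ratio of 1.11. The other arm, miR-500-5p, was detected on no array.

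miR-532-5p, the nearest neighbour of miR-188 upstream, was read by its longer probe alone. That probe gave 1.86, 4.26, 4.30 and 5.76 on sham arrays 1 to 4 and 3.37, 5.86, 3.85 and 5.30 on TULP arrays 1 to 4. The miRNA passed detection on sham arrays 2, 3 and 4 and on TULP arrays 2 and 4, and the groups overlapped. Its shorter probe lay between -0.27 and 1.04 on all arrays. The mean spot signal was 4.04 ± 1.44 for sham and 4.55 ± 1.20 for TULP (SD, n = 4 each).

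Of the 7 miRNAs detected on no array, miR-532-3p came nearest to the rule. Its longer probe gave 0.90, 1.57, 1.76 and 3.45 on sham arrays 1 to 4 and 1.23, 3.07, 1.68 and 2.32 on TULP arrays 1 to 4. The groups overlapped, and the highest value was on a sham array. miR-501-5p, which shares its hairpin with miR-501-3p, gave mean spot signals from -1.37 to -0.67 in the sham group and from -1.98 to 0.63 in the TULP group. Mean spot signals of the 7 miRNAs lay between -3.70 and 2.89 over all arrays, and the groups overlapped for each of the 7. miR-3560, on the strand opposite Mir501, was also detected on no array.

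**Figure D2:**
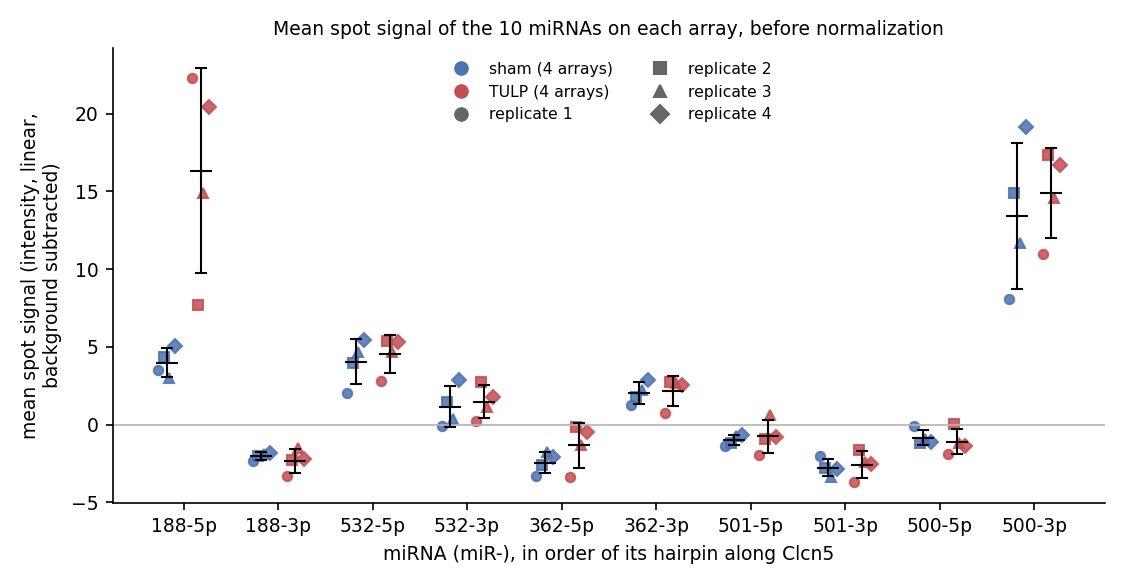
Mean spot signal (linear intensity, background subtracted, not normalized) of the 10 miRNAs on each array, in the order of their hairpins along Clcn5, with symbols for the replicate number and black bars for the mean and SD of 4 arrays. miR-188-5p is the 1 miRNA whose TULP arrays (7.70 to 22.3) all lie above its sham arrays (3.02 to 5.06).

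After quantile normalization between arrays, a floor of 1.94 (0.96 in log2) was set under the signals. The fit with limma covered 151 miRNAs with detection on 4 or more arrays, and 3 of the 10 miRNAs of the locus met this filter. miR-188-5p met it through the TULP arrays alone, so that a difference between the groups was built into its entry. Over all 151, 46 (30.5%) passed a Benjamini-Hochberg adjusted p of 0.05, 21 higher and 25 lower in the TULP group. Of the 3 miRNAs of the locus, 1 passed, miR-188-5p. Since this contrast chose it, nothing is read from that count. The groups did not overlap for 44 of the 151 (29.1%), and for 1 of the 3, again miR-188-5p.

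Normalized miR-188-5p was at the floor on all sham arrays and at 4.78, 1.96, 4.20 and 4.69 (log2) on TULP arrays 1 to 4. The mean of the TULP arrays was 3.91 ± 1.33 (SD, n = 4), 2.95 log2 units above the floor. No error of this difference is given, since every sham value is set by the floor, and with the floor multiplied by 2 the difference was 1.95. Among the 151, miR-188-5p was the only miRNA detected on every TULP array and on no sham array (0.662%), which is how it entered the filter and was chosen, so that nothing is read from it. No lower bound on the fold is given, because the ratio of mean spot signals, 4.10, was smaller than the fold over the floor.

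Normalized miR-500-3p was 2.56, 3.57, 3.12 and 3.88 (log2) on sham arrays 1 to 4 and 3.52, 4.43, 3.75 and 4.41 on TULP arrays 1 to 4. The group means were 3.28 ± 0.57 and 4.03 ± 0.46 (SD, n = 4 each). Its difference was 0.75 ± 0.34 (SE), with a 95% interval of -0.05 to 1.54, and it ranked 22 of 151. The interval includes 0. With the mean over all spots in place of the sum of detected probes, where both probes count on every array, the difference was 0.55. With arrays scaled by the labelling spike-ins the difference was 0.09, while the median of all tested miRNAs moved from -0.02 to -0.78, so that relative to other miRNAs miR-500-3p stayed on the higher side.

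Normalized miR-532-5p was at the floor on sham array 1 and at 1.93, 2.02 and 2.06 on the other sham arrays. On TULP arrays 1 to 4 it was 0.96, 2.82, 0.96 and 2.40. The groups overlapped, at 0.96 to 2.06 for sham and 0.96 to 2.82 for TULP, and TULP arrays 2 and 4 lay above every sham array. Its difference was 0.04 ± 0.50 (SE), with a 95% interval of -1.13 to 1.21, and it ranked 65 of 151. The sign of this difference was negative under 7 of 21 other settings, including spike-in scaling (-0.24) and no normalization (-0.17).

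**Figure D3:**
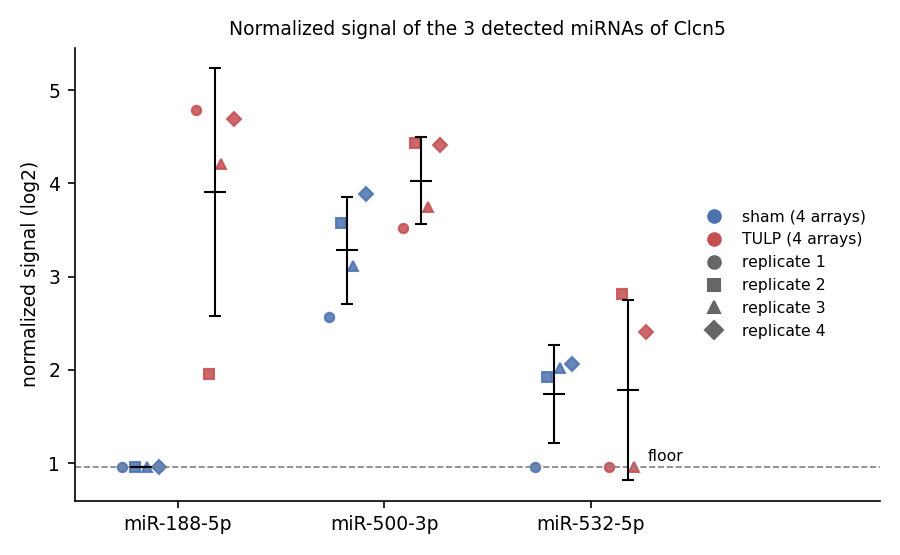
Normalized signal (log2) of the 3 detected miRNAs of Clcn5 on each array, with the floor as a broken line and black bars for the mean and SD of 4 arrays. The sham arrays of miR-188-5p lie on the floor at 0.96 and its TULP arrays between 1.96 and 4.78, while the groups of miR-500-3p and miR-532-5p overlap.

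The arrays lay on 1 slide in 2 rows, and the rows were not balanced between groups. Sham array 4 was beside TULP arrays 1 to 3 in row 1, and TULP array 4 was beside sham arrays 1 to 3 in row 2. For miR-188-5p the difference was 2.69 within row 1 and 3.73 within row 2, and 3.21 with the row as a block. For miR-500-3p it was 0.02 within row 1 and 1.33 within row 2, and 0.67 with the row as a block. For miR-532-5p it was -0.48 within row 1 and 0.77 within row 2. Each within-row value sets 1 array against 3 and has no test.

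Over the 8 arrays, the Pearson r of normalized miR-500-3p with miR-532-5p was 0.67, and 0.85 for deviations from the group means. miR-532-5p was at the floor on sham array 1 and TULP arrays 1 and 3. The sum for miR-500-3p held both probes on sham array 4 and TULP arrays 2 and 4 alone. The part of the floor and of the detection rule in this r was not tested. The r of miR-188-5p was 0.43 with miR-500-3p and -0.25 with miR-532-5p. For deviations from the group means over all 8 arrays these were -0.35 and -0.57. Their sign comes from the 4 TULP arrays alone, since miR-188-5p was at the floor on all sham arrays. The spread of the other miRNA over the sham arrays draws these r toward 0. In mean spot signal before normalization, where the sham arrays do differ, sham array 4 was the highest sham array for miR-188-5p (5.06), miR-500-3p (19.1) and miR-532-5p (5.41). Sham array 4 also had the highest summed signal of all rat miRNAs, 37417 against 21135 to 29315 on the other sham arrays. Nothing is therefore read from these maxima about the locus. In normalized signal, TULP array 2 had the lowest miR-188-5p of its group and the highest miR-500-3p and miR-532-5p, and TULP array 1 the reverse for miR-188-5p and miR-500-3p. Normalized miR-188-5p was above miR-500-3p on TULP arrays 1, 3 and 4 (by 1.26, 0.46 and 0.28) and 2.48 below it on TULP array 2, a difference between separate probes that is not a ratio of amounts. These values describe arrays that share a normalization, and no test was made.

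Of 149 other tested miRNAs whose values varied, those most like miR-188-5p over the 8 arrays were miR-3473 (r = 0.92), miR-15b-5p (0.90), miR-2985 (0.89) and miR-3085 (0.88). For deviations from the group means over the 8 arrays, r was 0.61, 0.43, 0.49 and 0.38. Again the sign comes from the TULP arrays alone, and the spread over the sham arrays draws r toward 0. As miR-188-5p differed mainly between the groups, likeness to it over all arrays favours miRNAs that do so too. miR-500-3p ranked 37 in this order and miR-532-5p ranked 93. Those most like miR-500-3p were miR-324-3p (0.91), miR-16-5p (0.87), miR-1949 (0.83) and miR-93-5p (0.82). Those most like miR-532-5p were miR-365-3p (0.88), miR-130a-3p (0.85), miR-193a-3p (0.85) and miR-542-5p (0.82), with r of 0.94, 0.86, 0.85 and 0.82 for deviations.

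For comparison, 14 tested miRNAs have all their RefSeq genes on chromosome X, of which 3 are those of the locus. Of the other 11, 6 were higher and 5 lower in the TULP group, with a median difference of 0.11 against -0.02 over all 151. Those that passed the adjusted p were miR-223-3p (2.10 ± 0.26 SE), miR-221-3p (1.69 ± 0.50), miR-322-5p (0.76 ± 0.16) and miR-3573-3p (0.54 ± 0.11), all higher. miR-223-3p is known from myeloid cells and miR-322-5p from muscle differentiation.

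**Figure D4:**
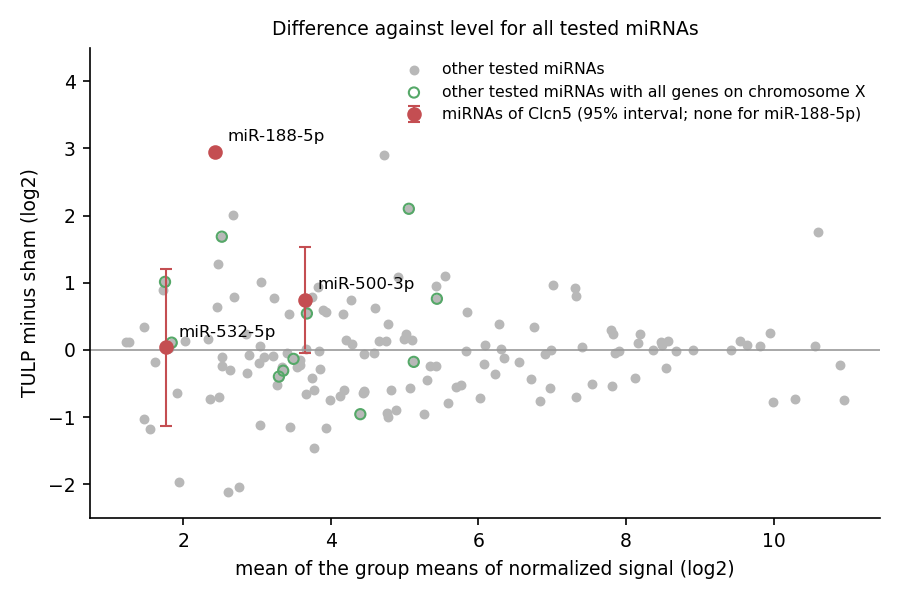
TULP minus sham (log2) against the mean of the group means of normalized signal (log2) for the 151 tested miRNAs. Red points are the miRNAs of Clcn5, with 95% intervals except for miR-188-5p, whose sham values are all at the floor, and green rings are the 11 other miRNAs with all genes on chromosome X. miR-188-5p lies at 2.95, miR-500-3p at 0.75 and miR-532-5p at 0.04.

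Some miRNAs known from leukocytes and striated muscle also differed between the groups. All 5 leukocyte miRNAs listed were on the array and 4 were tested, of which 2 passed the adjusted p and were higher in the TULP group, miR-223-3p and miR-142-3p. miR-150-5p differed the other way (-0.59), with no overlap between the groups, and did not pass (limma adjusted p = 0.0737). miR-155-5p differed by 0.89 and did not pass, and miR-142-5p was detected on no array. The list's summed normalized signal on the linear scale ranged from 34.7 to 51.1 in the sham group and from 64.2 to 132 in the TULP group. Within the TULP group miR-223-3p was 40.9, 94.3, 90.4 and 65.0 on arrays 1 to 4, and miR-142-3p was 6.75, 15.7, 16.6 and 15.5.

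Of 4 striated muscle miRNAs, 3 passed and were lower in the TULP group. The fourth, miR-206-3p, differed by 0.25 and did not pass (limma adjusted p = 0.795), with 420, 1512, 1281 and 1647 on TULP arrays 1 to 4 against 626 to 1099 over the sham arrays. The summed signal of the 4 was 4043 to 5659 in the sham group and 2639 to 4637 in the TULP group. Of the epithelial, smooth muscle and endothelial miRNAs, 6 of 7, 2 of 3 and 1 of 2 were tested, and 0 of these passed (limma). Their summed signals overlapped between the groups, at 475 to 661 against 387 to 922 for epithelium, 648 to 928 against 634 to 1315 for smooth muscle and 116 to 152 against 116 to 137 for endothelium. Epithelial and smooth muscle miRNAs were thus present in both groups. Taken singly, 4 of the 6 tested epithelial miRNAs were lower in the TULP group and 2 higher, with a median difference of -0.63. The lowest was miR-200c-3p at -1.46, which did not pass (limma adjusted p = 0.0753). The largest part of the epithelial sum was miR-200b-3p, at 257 to 626 over all arrays, with a difference of 0.0006. The part of leukocyte and muscle RNA in the signals of the locus was not tested.

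The summed signal of all rat miRNAs before normalization ranged from 21135 to 37417 over the sham arrays and from 16848 to 19526 over the TULP arrays. miR-188-5p was higher on the TULP arrays although their total was lower. The arrays detected 146 to 156 miRNAs in the sham group and 136 to 151 in the TULP group.

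The table of log2 values that the authors deposited lists the same arrays as having miR-188-5p. It was given at -3.32, the log2 of the value given to undetected miRNAs, on all sham arrays and at 4.76, 1.46, 4.18 and 4.66 on TULP arrays 1 to 4. For miR-500-3p the table lists 2.56, 3.54, 3.10 and 3.86 for sham arrays 1 to 4 and 3.51, 4.40, 3.73 and 4.38 for TULP arrays 1 to 4. miR-532-5p was listed at -0.18 on TULP array 1, where the scanner file calls it undetected. The other 7 miRNAs of the locus were at -3.32 on every array.

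The scanner files also store a total for each miRNA, and for this locus it did not match the probes. The stored total of miR-500-3p was 94.4, 124 and 157 on sham arrays 1 to 3 and 80.4 and 68.1 on TULP arrays 1 and 3, against probe sums of 6.80 to 12.8 on these arrays. On the other 3 arrays it equalled the sum of its detected probes. On 4 of the 5 arrays that detected miR-532-5p, its stored total equalled that of miR-500-3p plus its own probe, within 0.01. With stored totals in place of probe sums, the difference of miR-500-3p was -0.73 and that of miR-532-5p -1.69, the opposite sign to the values above. The stored totals of miR-188-5p equalled its probe sums.

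**Figure D5:**
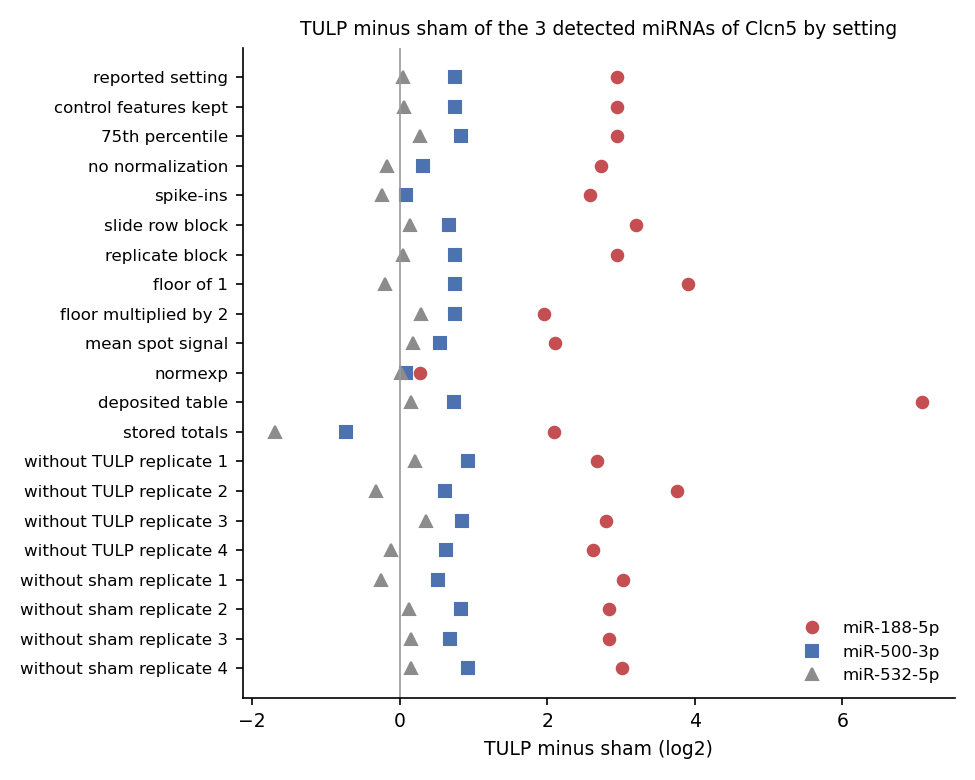
TULP minus sham (log2) of the 3 detected miRNAs of Clcn5 under each setting of the processing and with each array left out. miR-188-5p lies above 0 throughout, between 0.27 with normexp background correction and 7.09 in the deposited table, and the others lie below it under every setting shown. The sign of miR-188-5p was fixed wherever detected probes were summed, since it was undetected on every sham array.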

How the data were processed

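Total RNA of 8 rats was hybridized, per the labels, to an Agilent rat miRNA array with 1 dye (Cy3), and the submitters' processing notes name Agilent Feature Extraction 10.7.1.1 for the images. Spot and probe signals are intensities, background subtracted by the authors' software and, per the file headers, not normalized between arrays. The authors also deposited a table of quantile normalized log2 values, which matched quantile normalized log2 probe sums of detected miRNAs. Probe positions in the files use the build rn4, and RefSeq positions here are of GRCr8.

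The miRNAs of the locus and the comparison lists were chosen with earlier results of these data known. The signal of a miRNA was the sum over probes above 3 times their error (0.1 where none was), which gave the detection call of the files with 0 mismatches. Stored totals were not used, because 352 of 1191 (29.6%) exceeded that sum. Signals were quantile normalized over 758 rat miRNAs without control features, floored, converted to log2 and fitted by lmFit and eBayes of limma 3.58.1 (R 4.3.3, group as the single term) over 151 miRNAs detected on at least 4 arrays. The calculation was tested on simulated data. The number of arrays limits the precision. Named miRNAs were all those of the locus, the 4 tested miRNAs most correlated with each detected one, seed partners and called miRNAs of chromosome X. miR-1224, miR-6328, miR-3558-3p and miR-3560 were added after their values were seen. Alternatives were other signals, scalings, floors, filters, blocks for replicate number and slide row, the deposited table, the methods' t-test and each array left out. Of the 10 miRNAs, 7 were never detected and were not fitted.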

Additional observations from a re-analysis of the deposited data

Results flagged for a closer look

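Over 25 groups of 4 arrays with values of the miRNAs of the locus, 2 had an array far from the other 3, where chance gives about 1 in 20 groups. Some groups hold the same miRNA as mean spot signal and as normalized signal and are not independent, so nothing is read from this count. miR-532-5p in the sham group had 1 array at the floor of 0.96 (log2), sham array 1, against 1.93 to 2.06 on the others. In mean spot signal, where no floor is set, sham arrays 1 to 4 gave 2.06, 3.98, 4.70 and 5.41, and that group was not flagged. miR-362-3p, detected on no array, had a mean spot signal of 0.73 on TULP array 1 against 2.54 to 2.73 on the other TULP arrays.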

How the results depend on the processing

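The difference of miR-188-5p was above 0 under all 21 alternatives that gave it. This sign was fixed wherever detected probes were summed, since miR-188-5p was undetected on every sham array and detected on every TULP array. Nothing is read from that count. The difference was 0.27 with normexp background correction at an offset of 50. That offset lies above the signals of the locus and shrinks every fold by construction. The difference was 2.11 with mean spot signals, 3.91 with a floor of 1, 1.95 with the floor multiplied by 2 and 7.09 in the deposited table. With 1 array left out it ranged from 2.62 to 3.75, highest without TULP array 2. The difference of miR-500-3p was 0.08 with normexp. Scaled to the 75th percentile of the miRNAs detected on all arrays, the differences were 2.94 for miR-188-5p, 0.83 for miR-500-3p and 0.28 for miR-532-5p, and 51 miRNAs passed. The count of tested miRNAs passing the adjusted p, 46 as reported, was 28 with stored totals, 87 with spike-in scaling and 28 with the slide row as a block, and 31 to 58 with 1 array left out. The methods' t-test on the deposited table gave 38 after Benjamini-Hochberg adjustment, over 185 miRNAs, and 17 at an unadjusted p of 0.05 with a change over 2-fold. The count of miRNAs of the locus passing, 1 as reported, was 0 with stored totals, 0 where detection on all arrays was required, 2 with the replicate block (miR-188-5p and miR-500-3p), and 1 with each array left out. Over all tested miRNAs, 37 of 151 passed with the replicate block. Where detection on all arrays was required, 40 of a smaller set passed. The causes were not tested, except that the filter on all arrays removes miR-188-5p. Same-numbered arrays did not deviate together (r between -0.10 and 0.27 over the tested miRNAs), so the replicate number was not taken as a pairing. Scaling to the same percentile over all rat miRNAs, detected or not, could not be run, since that percentile lay at 0.1, the value given to undetected miRNAs. Signals of the locus were close to background, and changes in its 7 undetected miRNAs were not detectable.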
